A study of Mus musculus with 31 samples.

Results

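The genes described here build the kinetochore, move chromosomes on the mitotic spindle, or control entry into and exit from mitosis. They were chosen by symbol, with no use of a measured value in the rule: 52 genes were listed, and 51 of them had at least 1 probe set that the array annotation assigns to that gene alone, 113 probe sets in all, out of 18193 genes on the array. No probe set of the annotation used here names Ccnb1, cyclin B1, which was not analysed here. RNA of mouse mammary tissue was measured on Affymetrix mouse genome arrays, 1 array per sample. Control tissue gave 4 arrays, and K5ΔNβcat mice gave 5 small hyperplasias, 5 large hyperplasias and 11 tumors. K5ΔNβcat mice carry β-catenin without its N-terminal part, which makes it stable, under the keratin 5 promoter, so that the transgene is active in basal cells. In a separate experiment, basal mammary cells sorted as CD24+ with high CD49f came from K5creMycL/L mice, whose basal cells lose Myc and which carry no β-catenin transgene, and from control mice. Each genotype gave 3 arrays, and each array holds a pool of several mice. The labels of the tissue arrays do not say whether each came from a separate animal, so the p-values speak only for the variation among these samples. The strain is C57BL6 in the labels and a mix of 129SV and C57BL6 in the study's methods, and no age is given in the labels.

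At the centromere of each chromosome, a constitutive network of Cenp proteins carries the outer kinetochore, whose Ndc80 complex binds spindle microtubules. Unattached kinetochores activate the spindle checkpoint (Bub1, Bub1b, Bub3, Mad2l1, Ttk), which holds back Cdc20 and the anaphase-promoting complex until every chromosome is attached. The kinases Cdk1, Plk1, Aurka and Aurkb drive these steps, and most of the mRNAs are made late in the cell cycle, so that their level in a tissue is widely used as a sign of how many cells divide. In bulk tissue, a change in the number of dividing cells and a change in mRNA per cell cannot be told apart.

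Many genes of this kind carry, close to the start of transcription, a short element called the cell cycle genes homology region (CHR) and CCAAT boxes, the binding sequence of the factor NF-Y. RefSeq promoter windows (build GRCm38.p6, 250 bases before to 50 bases after the start, the first window listed for a gene) were found for 44 of the 52 genes listed. Letters of the CHR, TTTGAA or TTCGAA on either strand, were in 28 of the 44 windows (63.6%), against 5254 of 27025 windows of all genes (19.4%). CCAAT on either strand was in 34 of 44 (77.3%), against 37.9% of all windows, and both were in 25 of 44 (56.8%), against 7.7%. The E-box CACGTG, a sequence that Myc can bind, was in 3 of 44 (6.8%), against 7.2% of all windows. One of the E2F forms TTTCCCGC, TTTGGCGC and TTTCGCGC was in 3 of 44 (6.8%), against 1.9% of all windows. Matches were counted wherever they lay, and matches that overlap were not merged. These are matches of letters, with no test. The last 150 bases before the start are shown for 4 genes that gave the largest differences of their groups below and hold both elements, and for Pttg1, whose window holds neither. They are written 5′ to 3′ on the strand of the gene, with the CHR and CCAAT letters in capitals. All 5 genes lie on the minus strand, and the stretches are chr4:118437344-118437493 for Cdc20, chr7:127042421-127042570 for Kif22, chr11:99024190-99024339 for Top2a, chr10:69352913-69353062 for Cdk1 and chr11:43425982-43426131 for Pttg1.
Cdc20: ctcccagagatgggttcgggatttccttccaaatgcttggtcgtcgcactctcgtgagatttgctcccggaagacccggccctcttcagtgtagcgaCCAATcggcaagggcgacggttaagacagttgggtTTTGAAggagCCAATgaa
Kif22: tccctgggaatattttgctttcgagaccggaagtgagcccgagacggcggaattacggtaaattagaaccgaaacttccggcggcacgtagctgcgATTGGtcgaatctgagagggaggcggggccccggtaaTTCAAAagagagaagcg
Top2a: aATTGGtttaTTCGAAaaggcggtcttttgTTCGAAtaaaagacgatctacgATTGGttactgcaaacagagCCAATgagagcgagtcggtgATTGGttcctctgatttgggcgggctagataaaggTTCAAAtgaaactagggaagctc
Cdk1: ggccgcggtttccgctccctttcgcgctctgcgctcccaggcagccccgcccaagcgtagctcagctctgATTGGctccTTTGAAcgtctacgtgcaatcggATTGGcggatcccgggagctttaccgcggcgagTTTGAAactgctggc
Pttg1: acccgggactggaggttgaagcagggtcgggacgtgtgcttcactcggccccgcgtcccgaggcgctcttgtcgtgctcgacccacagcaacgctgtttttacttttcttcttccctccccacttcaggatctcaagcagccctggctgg
The stretch of Cdc20 holds 1 CHR and 2 CCAAT boxes, that of Kif22 holds 1 of each, that of Top2a holds 3 CHR and 4 CCAAT boxes, and that of Cdk1 holds 2 of each. Of the 10 genes with the largest tumor difference in each role group, 8 hold both elements in the window of 300 bases. The windows of Cenpp, Cenpt, Nuf2, Mad2l1, Birc5 and Tacc3 hold neither, like that of Pttg1, and these genes were called higher in tumors. Zwint, called lower by its brightest probe set, holds CCAAT but no CHR. Whether the elements go with the differences was not tested.

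The values are linear MAS5 signals, scaled by the authors on each array, and 30 is the background cut-off of the study's methods. Median signals of an array lay between 23.9 and 32.9 in tissue and between 13.2 and 19.7 in sorted cells, which were labelled with another kit and are never compared with tissue here. Differences are given on the scale of log2(signal + 16), which makes the change of a dim gene look smaller than it is. A gene is represented by its brightest probe set and entered a test if at least one group median reached the cut-off. A call is a Benjamini-Hochberg adjusted p under 0.05 in limma. On each of the 25 tissue arrays, the deviation of every gene from control tissue is shown in the heat map of the tissue arrays.

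**Figure D1:**
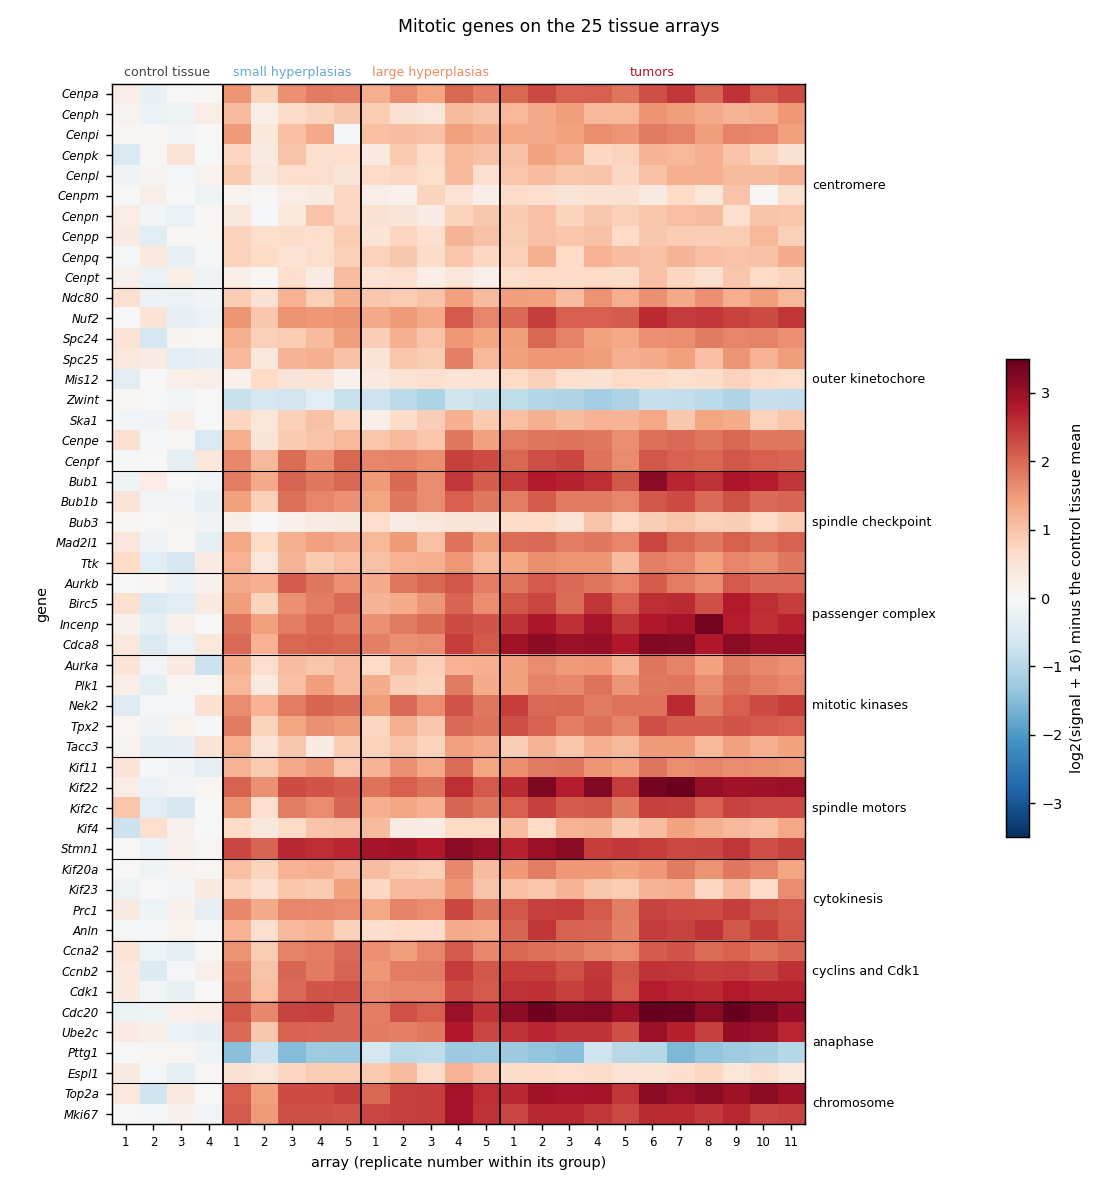
Each row is 1 of the 51 genes, grouped by role, and each column 1 of the 25 tissue arrays; the colour is log2(signal + 16) minus the mean of the 4 control arrays. All lesions are above control for most rows, Zwint and Pttg1 are below it, and small hyperplasia 2 is the palest and large hyperplasia 4 the darkest column of their groups.

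In tumors, 49 of the 51 genes were called higher than in control tissue and 2 were called lower, with a median log2 difference of 1.74 and a range of -1.19 to 3.31. Among all 11831 genes tested, 35.0% were called higher and 36.8% lower, and the median was -0.02. In 48 of the 51 genes every tumor lay above every control array, against 21.6% of all genes. The 19 genes with a median of at least 30 in both groups gave 17 higher and 2 lower, with a median of 1.96, and 32 genes passed the filter through the tumors alone. All 51 passed it, so the filter removed none. In control tissue 23 of the 51 genes were below 30 on every array, which leaves only a lower bound for the fold. These bounds run from at least 1.12-fold for Ska1 to at least 8.31-fold for Cdca8.

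The 10 genes of the centromere network were all called higher, with a median of 1.03. Cenpa, the histone H3 variant that marks the centromere, had the largest difference. Its signal ranged from 168 to 275 in tumors, with a median of 206, against 43.2, 25.5, 33.7 and 35.7 in control tissue. Every tumor was several times brighter than every control array (log2 difference 2.19 ± 0.16 SE, adjusted p = 5.3e-12). The other 9 lay between 0.53 and 1.56. Cenpm had the smallest, 25 to 63.0 with a median of 42.0 in tumors and 23.2, 29.6, 23.6 and 19.4 in control tissue, and was the only called one of the 51 whose groups overlapped (0.53 ± 0.14, adjusted p = 0.0018).

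Of the 9 outer kinetochore genes, 8 were called higher and Zwint lower by its brightest probe set. Nuf2, a subunit of the Ndc80 complex, led the group with 73.1 to 120 in tumors (median 100) and 6.60, 15.2, 2.25 and 3.62 in control tissue. All control values were below the cut-off, and the fold was at least 3.16 (log2 difference 2.31 ± 0.15, adjusted p = 1.6e-12). Cenpf and Cenpe, large proteins that help to capture microtubules, differed by 2.06 ± 0.16 and 1.87 ± 0.16. Mis12, which links the centromere to the outer kinetochore, had the smallest rise of the group (0.67 ± 0.10).

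The 5 checkpoint genes were all called higher. Bub1, a kinase of the checkpoint, read 70.7 to 155 in tumors (median 106) and 1.07, 6.96, 3.03 and 1.66 in control tissue, at least 3.44-fold higher (2.65 ± 0.16, adjusted p = 2.5e-13). Bub1b and Mad2l1 differed by 1.99 ± 0.16 and 1.96 ± 0.15, and Ttk by 1.57 ± 0.18. Bub3, a partner of Bub1 and Bub1b, had the smallest difference of the group, 863 ± 91.3 in tumors (SD, n = 11) and 493 ± 33.2 in control tissue (SD, n = 4), or 0.78 ± 0.08.

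The 4 genes of the chromosomal passenger complex had a median difference of 2.57. Cdca8, known as borealin, read 209 to 291 in tumors (median 247) and 25.8, 6.75, 11.9 and 26.3 in control tissue, where every array was below the cut-off. It was at least 8.31-fold higher (3.03 ± 0.17, adjusted p = 3.2e-14). Incenp, the scaffold of the complex, differed by 2.76 ± 0.14, the survivin gene Birc5 by 2.39 ± 0.20, and the kinase Aurkb by 1.93 ± 0.14.

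All 5 mitotic kinases and their partners rose. Nek2, a kinase of the centrosome, read 68.9 to 130 in tumors (median 81.8) and 1.64, 7.58, 7.28 and 18.6 in control tissue (2.12 ± 0.17, adjusted p = 6.3e-11). Plk1, the polo-like kinase, read 84.1 to 123 in tumors (median 106) and 27.1, 13.1, 22.3 and 21.7 in control tissue, at least 3.53-fold higher. Its log2 difference was 1.74 ± 0.16 (adjusted p = 9.0e-10). Tpx2, which activates Aurka on the spindle, differed by 2.06 ± 0.18, Aurka by 1.58 ± 0.16 and the microtubule protein Tacc3 by 1.24 ± 0.17.

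The 5 genes of spindle motors and microtubule dynamics rose as well. Kif22, a kinesin that binds chromosome arms, read 304 to 617 in tumors (median 456) and 53.6, 34.5, 39.1 and 45.2 in control tissue. Every tumor lay far above every control array (3.00 ± 0.16, adjusted p = 1.5e-14). Stmn1, which destabilises microtubules, read 842 to 1590 in tumors (median 953) and 167, 142, 184 and 171 in control tissue (2.54 ± 0.14). Kif4, a chromokinesin, had the smallest difference of the group, 1.13 ± 0.18.

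The 4 cytokinesis genes rose. Prc1, which bundles the microtubules of the midzone, read 95.9 to 158 in tumors (median 142) and 24.2, 12.9, 20.1 and 10.5 in control tissue, at least 4.59-fold higher (2.25 ± 0.14, adjusted p = 2.4e-13). Anln, the actin-binding anillin, was close to it at 2.23 ± 0.15, and Kif23 of the central spindle was lowest at 1.05 ± 0.16.

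Cyclins and their kinase rose together. Cdk1 read 187 to 300 in tumors (median 265) and 42.8, 27.3, 22.2 and 30.5 in control tissue (2.57 ± 0.16, adjusted p = 5.9e-13). Ccnb2, cyclin B2, read 164 to 215 in tumors (median 197) and 34.6, 12.4, 21.9 and 29.2 in control tissue (2.41 ± 0.16, adjusted p = 1.9e-12). In both genes the tumors lay well above all control arrays, as they did in Ccna2, cyclin A2 (1.95 ± 0.15).

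Of the 4 anaphase genes, 3 rose and Pttg1 fell by its brightest probe set. Cdc20, the activator of the anaphase-promoting complex, had the largest difference of all 51 genes. It read 448 to 747 in tumors (median 531) and 34.2, 35.0, 49.4 and 50.2 in control tissue (3.31 ± 0.17, adjusted p = 6.5e-15). Ube2c, the ubiquitin-conjugating enzyme of the same complex, differed by 2.67 ± 0.20. Espl1, the separase that cuts cohesin, differed by only 0.56 ± 0.11.

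Both genes grouped with the chromosome rose. Top2a, the topoisomerase that untangles sister chromatids, read 321 to 514 in tumors (median 446) and 60.7, 20.6, 59.7 and 42.5 in control tissue (2.93 ± 0.18, adjusted p = 2.8e-13). Mki67, which encodes the Ki-67 antigen of dividing cells, read 383 to 492 in tumors (median 437) and 64.2, 62.9, 74.3 and 60 in control tissue (2.49 ± 0.12, adjusted p = 2.3e-15).

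**Figure D2:**
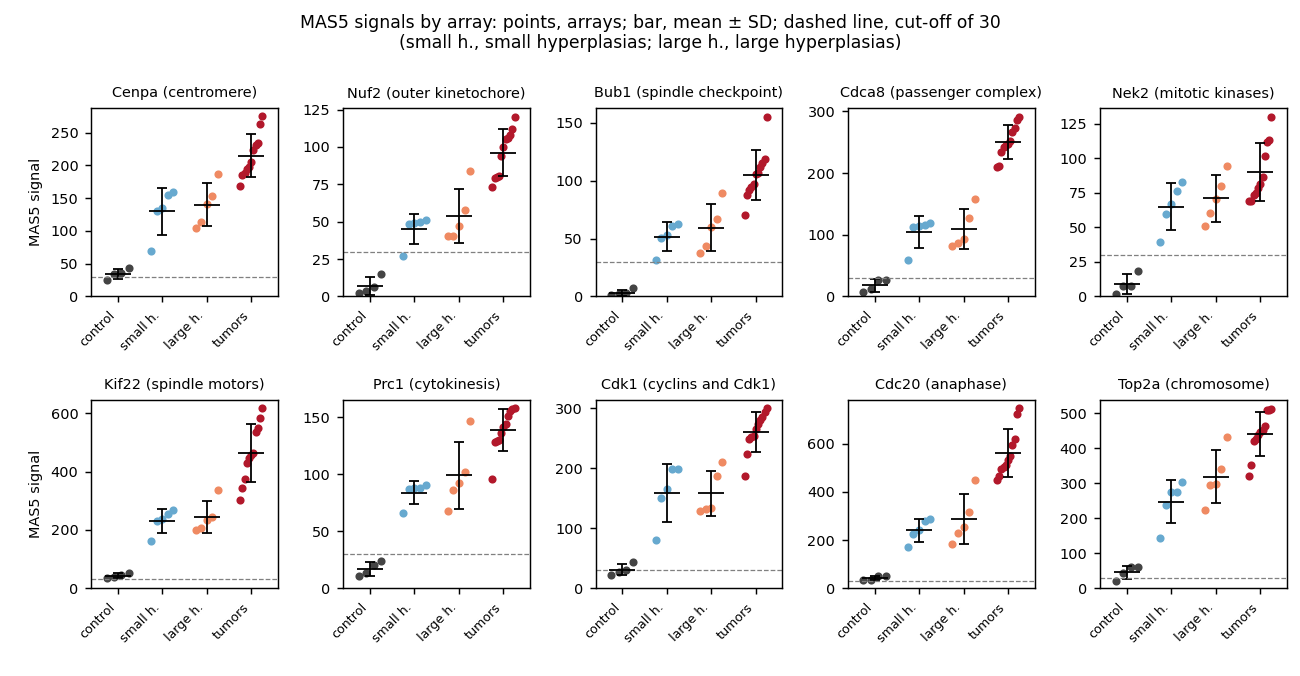
MAS5 signals (y axis, from 0) on each array of the 4 tissue groups for the gene with the largest tumor difference in each role group; bars are mean ± SD and the dashed line is the cut-off of 30. All tumors lie above all control arrays in each of the 10 panels. For Cdca8 every tumor also lies above every large hyperplasia, as in 9.98% of all genes tested.

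The probe sets of 21 genes could be compared in tumors, and those of 18 gave the same call. The exceptions were Zwint, Pttg1 and Bub3. For Zwint, a protein of the outer kinetochore, the brightest probe set read 282 to 376 in tumors (median 349) and 705, 678, 620 and 666 in control tissue, a fall of every tumor below every control array (-0.95 ± 0.09, adjusted p = 4.2e-10). The probe set 1427539_a_at of the same gene had medians of 257 in tumors and 46.4 in control tissue (2.14, adjusted p = 3.1e-13), 1427540_at gave 1.32, 1429787_x_at gave 0.80, and 1429786_a_at gave 0.04 and was not called. For Pttg1, securin, which restrains separase, the brightest probe set read 693 to 1290 in tumors (median 879) and 2102, 2207, 2178 and 1894 in control tissue (-1.19 ± 0.14, adjusted p = 7.3e-08). Its second probe set, 1424105_a_at, fell too (-0.60), and the dim 1419620_at, the only one of the 3 that the manufacturer's suffix marks as unique to the gene, gave 0.14 (adjusted p = 0.38). For Bub3 the unique probe set 1448473_at had medians of 88.9 in tumors and 91.0 in control tissue (0.00, adjusted p = 0.98). For Zwint, 2 probe sets that the suffix marks as unique, the brightest one and 1427540_at, ran in opposite directions, so that the direction of Zwint depended on the probe set.

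**Figure D3:**
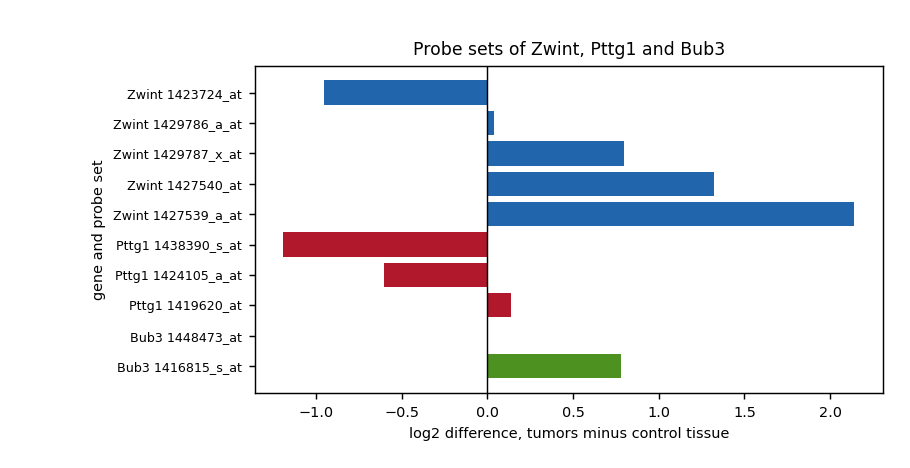
Bars give the log2 difference of tumors minus control tissue for each tested probe set of Zwint, Pttg1 and Bub3. Zwint spans -0.95 to 2.14 and Pttg1 -1.19 to 0.14, and for Bub3 1 probe set is at 0.00 and the other at 0.78.

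Markers of other cell types moved with these comparisons. Summed over 4 adipocyte genes, signals were 601 to 6022 in tumors, where Lep was below 30 on every array, against 31136 to 33626 in control tissue. The 4 basal cell genes summed to 6155 to 10487 in tumors, against 621 to 885 in control tissue, and the 5 endothelial genes to 406 to 771 in tumors, against 1093 to 1302 in control tissue. The 4 genes shared by epithelia summed to 2274 to 4312 in tumors, against 1070 to 2129 in control tissue. Of these 4 epithelial genes, 2 were called higher, 1 lower and 1 neither way. Sums of 4 luminal genes overlapped, at 1435 to 6795 in tumors and 4313 to 6538 in control tissue, with 1 called lower and 3 not called. Fibroblast sums overlapped too, at 7445 to 15174 in tumors and 12182 to 14637 in control tissue. Of these 4 fibroblast genes, 2 were called higher, 1 lower and 1 neither way. Leukocyte genes overlapped, with sums of 2040 to 4409 in tumors and 2140 to 3158 in control tissue. Of 5 leukocyte genes tested, 2 were called higher and 3 were not called. The part of tissue composition in the differences of the mitotic genes was not tested.

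The other genes of mitosis, 102 from 7 lists, were counted in the same way. Of 94 tested in tumors, 70 were called higher and 10 lower, with a median of 0.82, against 35.0% higher and 36.8% lower among all genes. All 8 condensin genes, which compact chromosomes, were called higher, from 0.32 ± 0.08 for Ncaph2 to 2.00 ± 0.14 for Ncapg2. Of 33 other spindle and kinetochore genes tested, 31 were called higher and none lower (median 1.45), led by Psrc1 at 2.84 ± 0.17. The core of the anaphase-promoting complex and its regulators had 4 called higher, 4 lower and 6 not called of 14 (median 0.10). Anapc5, a scaffold subunit, averaged 926 in tumors and 1446 in control tissue (-0.64 ± 0.11, adjusted p = 1.2e-05), while Fbxo5, the inhibitor Emi1, gave 0.94 ± 0.12. Cohesin, the ring that holds sister chromatids, had 5 called higher and 3 lower of 10 (median 0.23). Both counts of the anaphase-promoting complex, and the count of cohesin called lower, were not above the shares of all genes. Stag2 differed by -0.62 ± 0.08 and the acetyltransferase Esco2 by 1.52 ± 0.19. Among 10 transcription factors and MuvB subunits tied to these promoters, 6 were called higher and 1 lower. E2f8, a repressor, led at 2.23 ± 0.18, Mybl2 differed by 0.58 ± 0.12, and Foxm1 read 43.1 in tumors and 35.2 in control tissue on average (0.23 ± 0.18, adjusted p = 0.25).

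In large hyperplasias, 47 of the 51 genes were tested, and 44 were called higher than in control tissue, 2 lower and 1 neither way. The median was 1.36, against 0.04 over all 11763 genes tested, of which 26.8% were called higher and 22.9% lower. The 19 genes with medians of at least 30 in both groups gave 17 higher and 2 lower (median 1.41), and 28 passed the filter through the large hyperplasias alone. With no filter, 47 of all 51 were called higher and 2 lower, with a median of 1.24. Stmn1 had the largest difference, with 1358, 1370, 1258, 1599 and 1467 in large hyperplasias and 167, 142, 184 and 171 in control tissue (2.97 ± 0.16, adjusted p = 2.3e-13). Mki67 read 391, 414, 417, 591 and 450 in large hyperplasias and 60 to 74.3 in control tissue (2.51 ± 0.14, adjusted p = 3.3e-13). Top2a read 225, 295, 299, 433 and 342 in large hyperplasias and 20.6 to 60.7 in control tissue (2.47 ± 0.21). In each of the 3 genes the groups stayed apart, and the fourth large hyperplasia was the highest. Cdc20 (2.33 ± 0.19), Kif22 (2.13 ± 0.18), Cdk1 (1.89 ± 0.19), Ccnb2 (1.95 ± 0.19) and Plk1 (1.21 ± 0.19) were called higher too. The member tested and not called was Cenpm, with 30.4, 28.0, 52.7, 40.4 and 30.4 in large hyperplasias and 19.4 to 29.6 in control tissue (0.38 ± 0.16, adjusted p = 0.058). Zwint (-0.84 ± 0.10) and Pttg1 (-1.0 ± 0.17) were called lower by the same probe sets as in tumors, and the same limit holds. Adipocyte sums were 13424 to 16256 in large hyperplasias and 31136 to 33626 in control tissue, and leukocyte sums were 3649 to 4770 in large hyperplasias and 2140 to 3158 in control tissue. Basal sums were 3775 to 6955 in large hyperplasias and 621 to 885 in control tissue, sums of 4 epithelial genes 2660 to 3311 in large hyperplasias and 1070 to 2129 in control tissue, and endothelial sums 419 to 593 in large hyperplasias and 1093 to 1302 in control tissue. Of the 4 epithelial genes, 2 were called higher and 2 neither way. Luminal sums overlapped, at 2244 to 4994 in large hyperplasias and 4313 to 6538 in control tissue. Their part was not tested.

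In small hyperplasias, 43 of 47 genes tested were called higher than in control tissue, 2 lower and 2 neither way. The median was 1.18, against 0.02 over all 11594 genes, of which 19.3% were called higher and 15.3% lower. Of the 47, 28 passed the filter through the small hyperplasias alone, and without a filter 47 of all 51 were called higher and 2 lower (median 1.08). Stmn1 again had the largest difference, with 908, 735, 1113, 1079 and 1137 in small hyperplasias and 142 to 184 in control tissue (2.46 ± 0.16, adjusted p = 1.7e-11). Cdc20 followed, with 243, 170, 279, 288 and 223 in small hyperplasias and 34.2 to 50.2 in control tissue (2.13 ± 0.19). Mki67 read 342, 210, 369, 370 and 354 in small hyperplasias and 60 to 74.3 in control tissue (2.06 ± 0.14). The groups stayed apart in these genes, and the second small hyperplasia was the lowest in each. Cenpm (0.30 ± 0.16, adjusted p = 0.16) and Bub3 (0.20 ± 0.10, adjusted p = 0.11) were not called. Zwint (-0.64 ± 0.10) and Pttg1 (-1.25 ± 0.17) were called lower by the same probe sets as in tumors, and the same limit holds. Of 18 genes with several probe sets tested, 14 gave the same call and direction with each. Bub3, Cenpn, Pttg1 and Zwint did not. Adipocyte sums were 15228 to 20020 in small hyperplasias and 31136 to 33626 in control tissue. Basal sums were 3272 to 4638 in small hyperplasias and 621 to 885 in control tissue, epithelial sums 2377 to 3117 in small hyperplasias and 1070 to 2129 in control tissue, and endothelial sums 639 to 1019 in small hyperplasias and 1093 to 1302 in control tissue. Of the 4 epithelial genes, 2 were called higher and 2 neither way. Luminal sums overlapped, at 4266 to 7316 in small hyperplasias and 4313 to 6538 in control tissue. Their part was not tested.

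Small and large hyperplasias were close to each other in these genes. Of 47 tested, 2 were called higher in large hyperplasias and none lower, with a median of 0.15. Over all genes 4.10% were called higher and 5.55% lower, so the share of members called higher was near the background, and groups without overlap, higher in large hyperplasias, made up 4.99% of all genes. Stmn1 averaged 1410 ± 129 in large and 995 ± 170 in small hyperplasias (SD, n = 5 each), with no overlap (0.51 ± 0.15, adjusted p = 0.030), while its other probe set, 1448113_at, gave 0.16 (adjusted p = 0.54). Mki67 averaged 453 ± 80.0 in large and 329 ± 67.7 in small hyperplasias, with no overlap (0.45 ± 0.13, adjusted p = 0.025). The count of called genes was 0 without small hyperplasia 2 or without large hyperplasia 4, and 1 without small hyperplasia 1 or without large hyperplasia 1, 2 or 5. Cdk1 averaged 158 ± 37.4 in large and 159 ± 48.4 in small hyperplasias (0.03 ± 0.18, adjusted p = 0.94).

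Tumors were set against large hyperplasias to ask which of these genes differed further. Of 51 tested, 30 were called higher in tumors, 2 lower and 19 neither way. The median was 0.37, against -0.07 over all genes, of which 22.7% were called higher and 31.9% lower. The 47 genes with medians of at least 30 in both groups gave 28 called higher (median 0.35), and 4 passed the filter through the tumors alone. With no filter, 28 of all 51 were called higher and 2 lower. In 4 of the 51 genes every tumor lay above every large hyperplasia, a share not above the 9.98% of all genes. Calls between tumors and large hyperplasias often depended on the probe set. Of 21 genes with several probe sets tested, only 8 gave the same call with each, and Cenpa, Incenp, Kif2c, Stmn1, Top2a and Tpx2 were among the 13 that did not. The values that follow are those of the brightest probe set. The largest difference was that of Anln, with 252 to 441 in tumors (median 342) and 106, 112, 111, 180 and 176 in large hyperplasias (1.31 ± 0.14, adjusted p = 3.0e-08). Cdca8 followed, with 209 to 291 in tumors and 93.8, 82.2, 86.9, 158 and 127 in large hyperplasias (1.12 ± 0.15, adjusted p = 1.8e-06). In both, and in Incenp (0.79 ± 0.13) and Cenph (0.53 ± 0.13), the groups did not overlap. Cenph had a median of 26.4 in large hyperplasias and passed the filter through the tumors alone. Cdc20 read 448 to 747 in tumors and 185, 256, 228, 450 and 315 in large hyperplasias, where only the fourth reached the lowest tumor (0.98 ± 0.15, adjusted p = 1.1e-05). Kif22 (0.88 ± 0.15), Birc5 (0.84 ± 0.18), Bub1 (0.71 ± 0.15), Nuf2 (0.70 ± 0.14), Tpx2 (0.70 ± 0.17), Cdk1 (0.68 ± 0.15), Plk1 (0.53 ± 0.15), Ccnb2 (0.47 ± 0.15) and Top2a (0.47 ± 0.17) were called higher.

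Not all of the genes followed. Mki67 averaged 442 ± 43.9 in tumors (SD, n = 11) and 453 ± 80.0 in large hyperplasias (SD, n = 5), a difference of -0.02 ± 0.11 (adjusted p = 0.87). Aurkb (0.11 ± 0.13), Cenpf (0.11 ± 0.14), Kif23 (-0.05 ± 0.15), Ccna2 (0.23 ± 0.14) and Bub1b (0.23 ± 0.15) were not called either. Stmn1 was called lower, with 842 to 1590 in tumors and 1258 to 1599 in large hyperplasias (-0.44 ± 0.13, adjusted p = 0.0054). Its other probe set, 1448113_at, gave -0.16 (adjusted p = 0.30) and was not called. Espl1 was called lower as well, with 35.8 to 50.3 in tumors and 60.5, 71.2, 48.1, 76.7 and 63.0 in large hyperplasias (-0.41 ± 0.10, adjusted p = 0.0017). Adipocyte sums were 601 to 6022 in tumors and 13424 to 16256 in large hyperplasias, and basal sums 6155 to 10487 in tumors and 3775 to 6955 in large hyperplasias. Leukocyte sums were 2040 to 4409 in tumors and 3649 to 4770 in large hyperplasias, with 3 of 6 genes called lower and 3 not called. Fibroblast sums were 7445 to 15174 in tumors and 12629 to 16419 in large hyperplasias, with 1 of 4 genes called lower and 3 not called. Luminal, epithelial and endothelial sums overlapped between these groups. The part of these cell types was not tested. The genes named in these comparisons beyond those fixed by the rule were chosen after their values were seen.

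**Figure D4:**
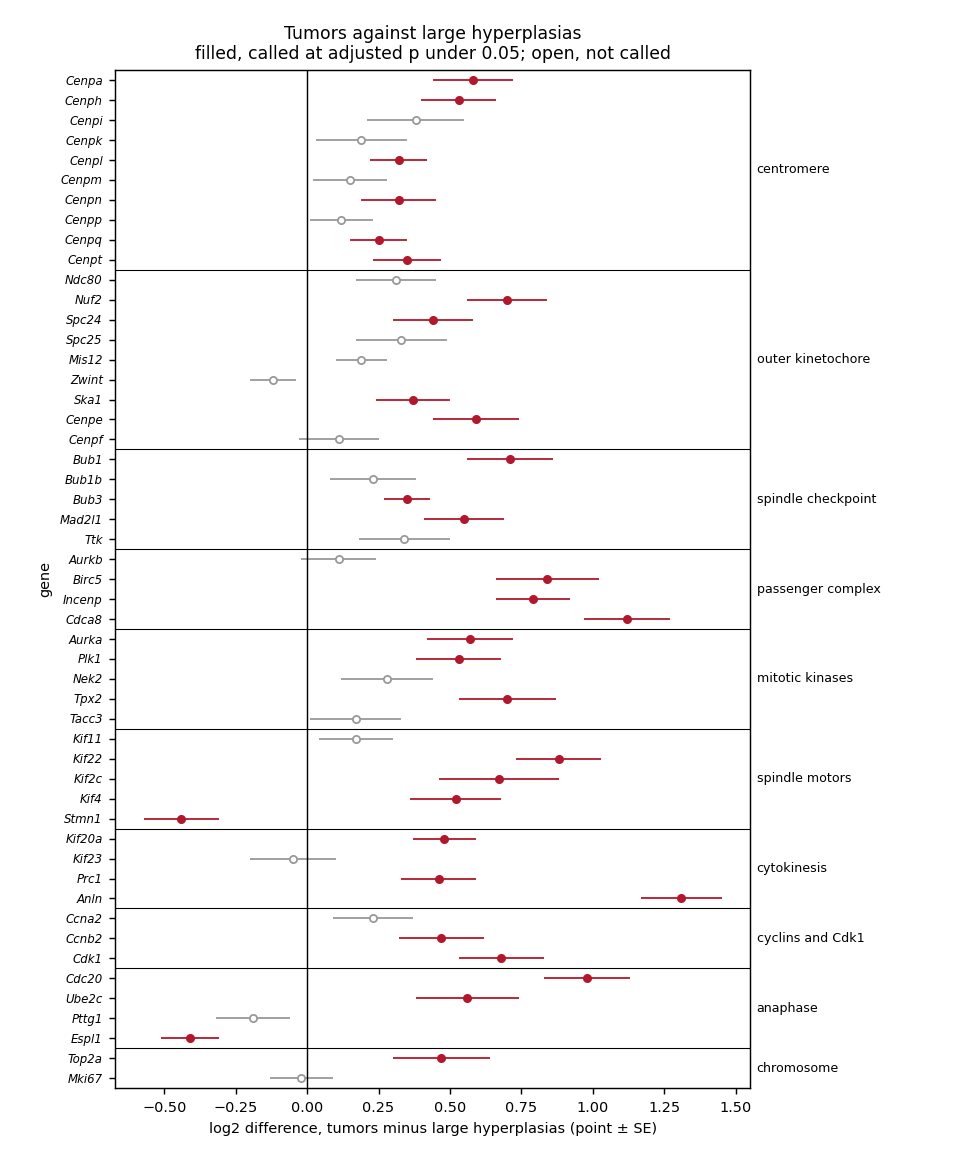
Each point is the log2 difference of tumors minus large hyperplasias for 1 gene, with its SE; filled points were called. Anln (1.31) and Cdca8 (1.12) are farthest to the right, Mki67 lies at -0.02, and Stmn1 (-0.44) and Espl1 (-0.41) are the 2 called to the left of 0.

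The mean log2 signal of 41 of the 51 genes was ordered as control tissue, small hyperplasias, large hyperplasias and tumors, from low to high. The share of all genes with this order was not counted. The step from small to large hyperplasias was called in only 2 of 47 genes. Averaged over the 51 genes, control arrays differed from their own mean by -0.10 to 0.15, the small hyperplasias by 0.72 to 1.28, the large ones by 1.07 to 1.66 and the tumors by 1.46 to 1.82. Small hyperplasia 2 stood low in its group, at 0.72 against 1.20 to 1.28 on the other 4 arrays, and large hyperplasia 4 stood high, at 1.66 against 1.07 to 1.39. Within tumors, tumor 5 had the lowest signal in 25 of the 51 genes, tumor 6 the highest in 13 and tumor 9 the highest in 11. The transcript of Myc averaged 226 in tumors and 138 in control tissue (0.61 ± 0.18, adjusted p = 0.0043), and 226 in tumors against 216 in large hyperplasias (0.03 ± 0.17, adjusted p = 0.90).

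In sorted basal cells, the signal of Myc itself was 141, 428 and 42.3 in the 3 Myc-deficient pools and 1479, 1677 and 1869 in the 3 control pools. Whether the probes lie in the deleted exons is not known. Krt14, a keratin of basal cells, read 5937, 7888 and 5145 in Myc-deficient pools and 4376, 5208 and 4521 in control pools. Ptprc, which marks leukocytes, was below 30 in all 6. Another leukocyte gene, Csf1r, reached 143 in control pool 3 and 106 in Myc-deficient pool 1. Adipocyte sums were 1315 to 4249 in Myc-deficient and 1148 to 3424 in control pools, and Fabp4 made up most of them. Fabp4 alone read 4206, 1287 and 2294 in Myc-deficient pools and 2306, 1142 and 3392 in control pools. Adipoq and Cidec were below 30 in every pool, and Lep in every control pool. Fibroblast sums were 2074 to 2696 in Myc-deficient and 1959 to 2333 in control pools. Luminal sums were 3683 to 4663 in Myc-deficient and 3272 to 3976 in control pools. Endothelial sums were 52.4 to 593 in Myc-deficient and 93.2 to 357 in control pools. The part of other cell types in these pools was not tested.

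No gene was called in this comparison by limma, none of the 34 members tested and 0 of the 9512 genes, so that the background is 0% called lower. The methods' t-test after Benjamini-Hochberg adjustment and the fit with the replicate number as a block called 0 as well. At an unadjusted p under 0.05, 22 of the 34 were lower and 1 was higher, against 4.53% of all genes lower (431 lower and 256 higher). By the 2-fold rule of the study's methods, 28 of the 34 were lower, against 9.33% of all genes, and in 12 of 34 the 3 Myc-deficient pools lay below the 3 control pools, against 7.18%. The median log2 difference was -1.29, against -0.03 over all genes. Of the 34, 19 passed the filter through the control pools alone and so had to be lower. The 15 with medians of at least 30 in both groups had a median of -1.30, 11 of them lower, and over all 51 members without a filter the median was -0.97, with 43 lower. Among all 9512 genes tested, 53.0% had a lower mean.

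The 4 most negative differences were those of Spc24, Cdca8, Kif22 and Ube2c. Spc24, a subunit of the Ndc80 complex, read 9.90, 2.45 and 59.6 in Myc-deficient pools and 147, 350 and 127 in control pools (-2.63 ± 0.56, unadjusted p = 4.6e-04 in limma, adjusted p = 0.44). Kif22 read 3.45, 78.6 and 41.0 in Myc-deficient pools and 199, 221 and 167 in control pools (-2.16 ± 0.53, adjusted p = 0.53 in limma). Ube2c read 17.4, 8.90 and 67.6 in Myc-deficient pools and 81.9, 300 and 179 in control pools (-2.15 ± 0.55, adjusted p = 0.55 in limma). In these 3 genes every Myc-deficient pool was below every control pool. Cdca8 read 30.6, 11.2 and 468 in Myc-deficient pools and 475, 676 and 212 in control pools (-2.33 ± 0.83, adjusted p = 0.71 in limma), and the third Myc-deficient pool was above its control.

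That split by pool recurred. Mki67 read 136, 59.7 and 801 in Myc-deficient pools and 701, 949 and 691 in control pools. Cdk1 read 3.11, 9.56 and 80.6 in Myc-deficient pools and 58.5, 170 and 47.2 in control pools. In both genes the first and second pools were far below their controls and the third was above it. Top2a, at 11.2, 42.0 and 81.1 in Myc-deficient pools and 124, 278 and 123 in control pools, was lower in all 3, as was Ccnb2, at 5.92, 3.75 and 58.2 in Myc-deficient pools and 26.4, 85.9 and 88.8 in control pools. Plk1 was below 30 in every pool. With each Myc-deficient pool set against the control pool of its number, 20 of 34 genes were lower in all 3 pairs, 11 in 2, 1 in 1 and 2 in none. The labels do not say that pools of the same number belong together. The same counts were not made over all genes. Because 19 of the 34 passed the filter through the control pools alone, these counts and the averages that follow lean lower by selection. Averaged over the 34 genes, the difference from the control mean was -1.59, -1.58 and -0.33 in Myc-deficient pools and -0.19, 0.27 and -0.08 in control pools. The third Myc-deficient pool, which had the least Myc signal, lay near the control pools. Without it, 2 of the members were called lower, Cdca8 (-3.58) and Mki67 (-2.88), of 7 genes in all. In both, the pool left out was the one above its control, so these calls follow from its removal. With any other single pool left out, 0 or 1 gene in all was called lower.

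**Figure D5:**
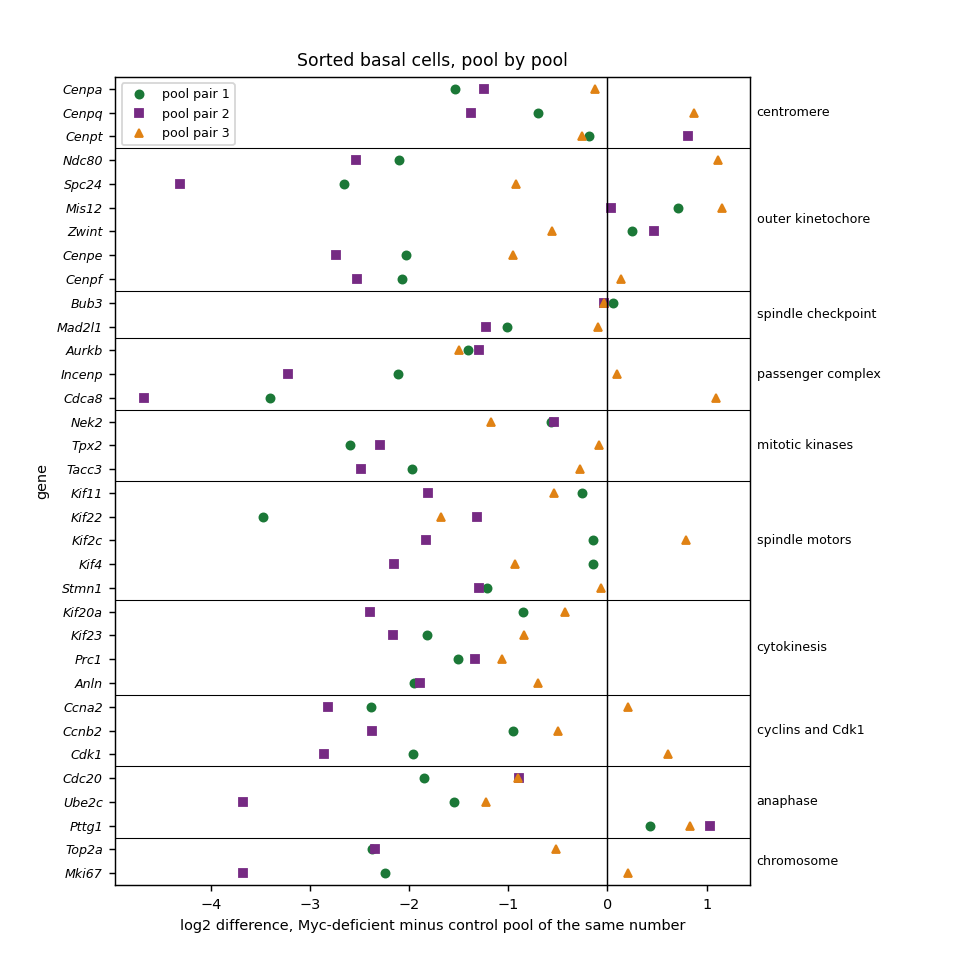
Each symbol is the log2 difference of a Myc-deficient pool minus the control pool of its number, for the 34 genes tested. Pool pairs 1 and 2 are mostly left of 0, and pair 3 is right of it for Cdca8, Cdk1 and Mki67; Pttg1 and Mis12 are right of 0 in all 3 pairs.

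The 4 highest differences were small or positive. Pttg1 read 1663, 2360 and 2125 in Myc-deficient pools and 1234, 1148 and 1191 in control pools (0.76 ± 0.22, unadjusted p = 0.0044, adjusted p = 0.59 in limma), and Mis12 read 109, 90.8 and 111 in Myc-deficient pools and 60.6, 88.1 and 41.3 in control pools (0.63 ± 0.39, adjusted p = 0.82 in limma). In these 2 genes alone of the 34, every Myc-deficient pool was above every control pool, as in 5.75% of all genes, which is near the share among the members. Cenpt (0.12 ± 0.52) and Zwint (0.05 ± 0.29) followed. Of 15 genes with several probe sets tested in sorted cells, 13 gave the same direction with each, and Zwint was not among them. By role, the medians were -1.74 for the passenger complex (3 tested), -1.58 for the kinases (3), -1.41 for cytokinesis (4), -1.40 for cyclins and Cdk1 (3), -1.33 for the outer kinetochore (6), -1.82 for the chromosome genes (2), -1.21 for anaphase (3), -0.87 for the spindle motors (5), -0.40 for the centromere network (3) and -0.39 for the checkpoint (2). None of these differences between role groups was tested, and the medians include the 19 genes that passed the filter through the control pools alone. The 13 genes tested of the core of the anaphase-promoting complex and its regulators had a median of -0.09, and the 9 of cohesin -0.12.

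Of the 51 members, 17 are on the study's own list of genes lower in Myc-deficient basal cells and higher in hyperplasias. That list was chosen on these arrays, so its direction is not independent. All 17 had a lower mean, with a median of -1.51, and of the 17 members tested that are not on it 13 had a lower mean, with a median of -1.08.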

How the data were processed

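RNA of 31 samples was hybridised to Affymetrix mouse 430 2.0 arrays, 25 of mammary tissue and 6 of sorted basal cells. The authors computed linear MAS5 signal intensity values in Affymetrix Expression Console, with no version given in the sources used here, and deposited them scaled to a common target. The trimmed mean of an array, with 2% taken off each end, was 99 to 99.6. Per the labels, tissue and sorted samples were labelled with different kits. The number of arrays limits the precision.

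Of 45037 probe sets analysed (64 control probe sets were left out), 34945 carry 1 symbol, 932 several and 9160 none; symbols were updated by gene identifier through a RefSeq table, and only probe sets with 1 symbol name a gene. Where a gene had several, the one brightest on average (log2 scale, arrays of that fit) stood for it. Signals were tested as log2(signal + 16) with limma 3.58.1 in R 4.3.3 (lmFit, eBayes with a trend), the 25 tissue arrays in 1 model and the 6 sorted arrays in another. Probe sets whose group medians were both under 30 were not tested, and p-values were adjusted by Benjamini-Hochberg over all probe sets tested. A fold bound sets the mean log2 signal of the brighter group against 30. The script was tested on simulated data. No arrays were identical. Sorted pools of the same number deviated together (correlations of 0.253, 0.267 and 0.32 over 14060 probe sets), each best with its own number. The labels do not say that these pools are pairs, and 3 pools per group are too few to settle it. The main fit took the pools as unpaired, and the replicate number as a block was an alternative. Alternatives were other offsets, filters, normalizations, probe set choices, tests and samples. The members and lists were chosen with earlier results of these data known. The text gives all members by role group, named cell cycle genes, the largest tumor difference of each role group, members called lower or not called against control tissue, and the 4 highest and 4 lowest differences of sorted cells.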

Additional observations from a re-analysis of the deposited data

Results flagged for a closer look

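Among 130 groups of 4 to 10 arrays, 11 held an array far from the others, 7 of them small hyperplasia 2. Chance flags about 1 group in 20, but the groups share arrays, so the flags are not independent and their number cannot be weighed against that rate. Small hyperplasia 2 had the lowest signal of its group for Nuf2 (27.2, next 48.2), Mad2l1 (106, next 167), Cdca8 (59.1, next 113), Prc1 (65.8, next 87.1), Ube2c (84.8, next 189) and Mki67 (210, next 342). It had the highest signal for Pttg1 (1270, next 866). Its Myc signal was 145, against 221 to 297 on the other small hyperplasias. Large hyperplasia 4 had the highest signal of its group for Cenpl (52.6, next 36.1), Kif20a (73.8, next 44.0) and Ccna2 (214, next 152). Control tissue 3 had the highest signal of its group for Anln (69.6, next 61.4). A cause was not tested.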

How the results depend on the processing

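The counts of members called higher against control tissue stayed within 1.5 times of the main count under each alternative run. Leaving out 1 array gave 49 higher and 2 lower in tumors each time, 42 to 44 higher in large hyperplasias and 41 to 43 higher in small hyperplasias. The count called lower in tumors, 2, was 1 with unique probe sets preferred and 1 by the 2-fold rule. Between tumors and large hyperplasias, the 30 called higher became 17 with the replicate number as a block and 7 by the 2-fold rule (24 to 33 with 1 array left out), and the 2 called lower became 1 with the block, 1 with unique probe sets and 0 by the 2-fold rule (2 with any array left out). The tissue numbers do not pair samples (correlations of -0.18 to 0.133). The block left 49 higher and 2 lower in tumors, 42 higher in large and 42 higher in small hyperplasias against control tissue, and 2 higher between the hyperplasias. That count of 2 was 1 with no filter, 1 with unique probe sets, 1 with only these groups in the fit, 0 by the methods' t-test, 0 by the 2-fold rule, and 0 to 2 with 1 array left out. In sorted cells, the count called lower, 0, was 28 by the 2-fold rule, 0 with the block, and 0 to 2 with 1 pool left out. With unique probe sets preferred, the difference of Pttg1 was 0.14 in tumors and 0.03 in large hyperplasias against control tissue, that of Bub3 -0.11 in large hyperplasias against control tissue, and that of Cenpa -0.01 between tumors and large hyperplasias. The cause of these changes was not tested. Signals under 30 limit what can be said of 23 members in control tissue.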

Other observations

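Genes that prepare the entry into mitosis were measured beside the members. Of 13 tested in tumors against control tissue, 11 were called higher and 1 lower, with a median log2 difference of 0.87. Among all genes tested, 35.0% were called higher and 36.8% lower. Cks2, a subunit that binds Cdk1, averaged 508 in tumors and 59.5 in control tissue (2.79 ± 0.16 SE, adjusted p = 5.1e-14). Melk, a kinase of dividing cells, averaged 89.2 in tumors and 11.3 in control tissue (1.98 ± 0.13). The kinase Wee1, which restrains Cdk1, averaged 137 in tumors and 115 in control tissue (0.25 ± 0.16, adjusted p = 0.17). Of 6 centriole genes tested, 5 were called higher and 1 lower (median 0.47), led by Plk4, the kinase that starts centriole duplication, with 160 in tumors and 41.6 in control tissue (1.62 ± 0.11). These genes were named after their values were seen.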
